A study of Homo sapiens with 2 samples.

Results

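The small nuclear RNAs (snRNAs) of the spliceosome other than U1, and the small Cajal body RNAs (scaRNAs) that guide their chemical modification, were taken from a table of non-coding RNAs of A375 cells. Members were the rows that the table types as snRNA or guide RNA, leaving out U1 genes, snoRNA names and RN7SK, which gave 43 of 3576 rows: 16 snRNAs and 27 scaRNAs. The snRNAs were 12 genes for U4, U5 and U6 of the major spliceosome and 4 genes, for U11, U12, U4atac and U6atac, of the minor spliceosome. U2 genes were not analysed here.

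A375 is an established human melanoma line, labelled as wild type. The study compared untreated control cells (0 Gy) with cells given 8 Gy of ionizing radiation. Each dose had 1 library, made from total RNA with an mRNA-Seq kit. Whether such a kit recovers snRNAs and scaRNAs in proportion to their levels was not tested. The fold changes therefore compare reads and may not measure the levels of the mature RNAs. The submitters' design text asks how this tumour type becomes radioresistant. SAMMSON, an RNA of the melanoma lineage, is among the rows of the table. No label states when cells were collected. The authors' deposited table sets 1 library against the other, and no label ties either of its library names to a dose. Below, the library on top of the fold change is the numerator library and the other the denominator library, and higher or lower never refers to a dose.

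The spliceosome removes introns with RNA and protein particles built around snRNAs. In the major spliceosome, U1 and U2 mark the intron, U4 delivers U6 in an inactive pairing, U6 takes part in catalysis and U5 holds the exons. The minor spliceosome removes a rare class of introns with U11, U12, U4atac and U6atac in the matching places, and shares U5. U4, U5, U11, U12 and U4atac are made by RNA polymerase II and carry a ring of Sm proteins, whereas U6 and U6atac are made by RNA polymerase III. In Cajal bodies, scaRNAs with C and D boxes guide 2'-O-methylation of snRNAs, those with H and ACA boxes guide pseudouridylation, and mixed ones carry both kinds of box.

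The sequences below are reference transcripts of GENCODE 29 (GRCh38), written as DNA, which held 37 of the 43 members. For U4, whose pair of genes lies on chromosome 12, capitals mark the bases that differ. They are C37T, G88A, C99A and C113T, counted from the 5′ end, with the base of RNU4-1 first.
RNU4-1: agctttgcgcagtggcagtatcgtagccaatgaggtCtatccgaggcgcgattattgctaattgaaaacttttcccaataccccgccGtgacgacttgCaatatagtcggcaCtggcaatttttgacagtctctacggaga
RNU4-2: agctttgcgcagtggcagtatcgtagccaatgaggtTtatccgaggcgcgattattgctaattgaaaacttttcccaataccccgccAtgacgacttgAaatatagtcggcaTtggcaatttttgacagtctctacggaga
The minor spliceosome is shown whole. Capitals mark AATTTTT, part of the Sm protein site, in U11 (chromosome 1), U12 (chromosome 22) and U4atac (chromosome 2). In U6atac (chromosome 9) they mark AAGGAGA, which pairs with the 5′ splice site.
RNU11: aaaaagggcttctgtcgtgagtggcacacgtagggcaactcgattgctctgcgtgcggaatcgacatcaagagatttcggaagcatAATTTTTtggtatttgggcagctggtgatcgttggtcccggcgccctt
RNU12: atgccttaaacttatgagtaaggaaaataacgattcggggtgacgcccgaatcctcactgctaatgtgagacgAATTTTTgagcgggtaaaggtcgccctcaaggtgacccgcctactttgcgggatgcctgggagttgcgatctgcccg
RNU4ATAC: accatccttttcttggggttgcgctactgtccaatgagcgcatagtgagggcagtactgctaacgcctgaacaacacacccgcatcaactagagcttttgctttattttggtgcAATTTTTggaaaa
RNU6ATAC: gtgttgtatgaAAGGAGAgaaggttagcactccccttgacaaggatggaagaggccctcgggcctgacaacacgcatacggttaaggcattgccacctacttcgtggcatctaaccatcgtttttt
The letters AATTTTT were found in 10 of the 16 snRNAs, the 10 made by RNA polymerase II, and in 6.74% of the 1900 GENCODE snRNA transcripts, all searched on the transcript's strand. AAGGAGA was found in 1 of the 16, U6atac, and in 1.74% of those transcripts.

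The fold changes were read against the reads behind them. Of all rows, 3535 (98.9%) lay on ratios of whole read numbers up to 3000, after scaling by the most frequent value, and the smallest such pair gives the least reads that can stand behind a fold change. Of the 43 members, 34 had a pair and 9 had none. Those 9 may have more reads than 3000 or values that are not whole, which cannot be told apart here, and they are given with no interval. Values in brackets after a fold are the exact (Clopper-Pearson) 95% interval of that pair, and cover counting error only. Without replicates no difference can be set against replicate error, and the p-values in the authors' deposited table compare these libraries, not the doses.

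As a group, the 43 RNAs lay close to 0 on the log2 scale. Their median log2 fold change was -0.03, with 23 below 0 and 20 above, whereas 39.1% of all rows were below 0 and the median of all rows was 0.16. The 274 snoRNAs of the table, the most similar class, had a median of 0.0016. Relative to the median of all rows, 31 of the 43 were lower. The largest p-value of the authors' deposited table, 0.9999, lies at a log2 fold change of -0.14. No centre was fitted to the p-values, and high ones also lie elsewhere, such as 0.953 at -0.09 for SCARNA18B in that table. Relative to -0.14, 27 of the 43 were higher. Small differences can thus change sign with the reference value, and their direction is stated from 0 below unless another value is named.

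**Figure D1:**
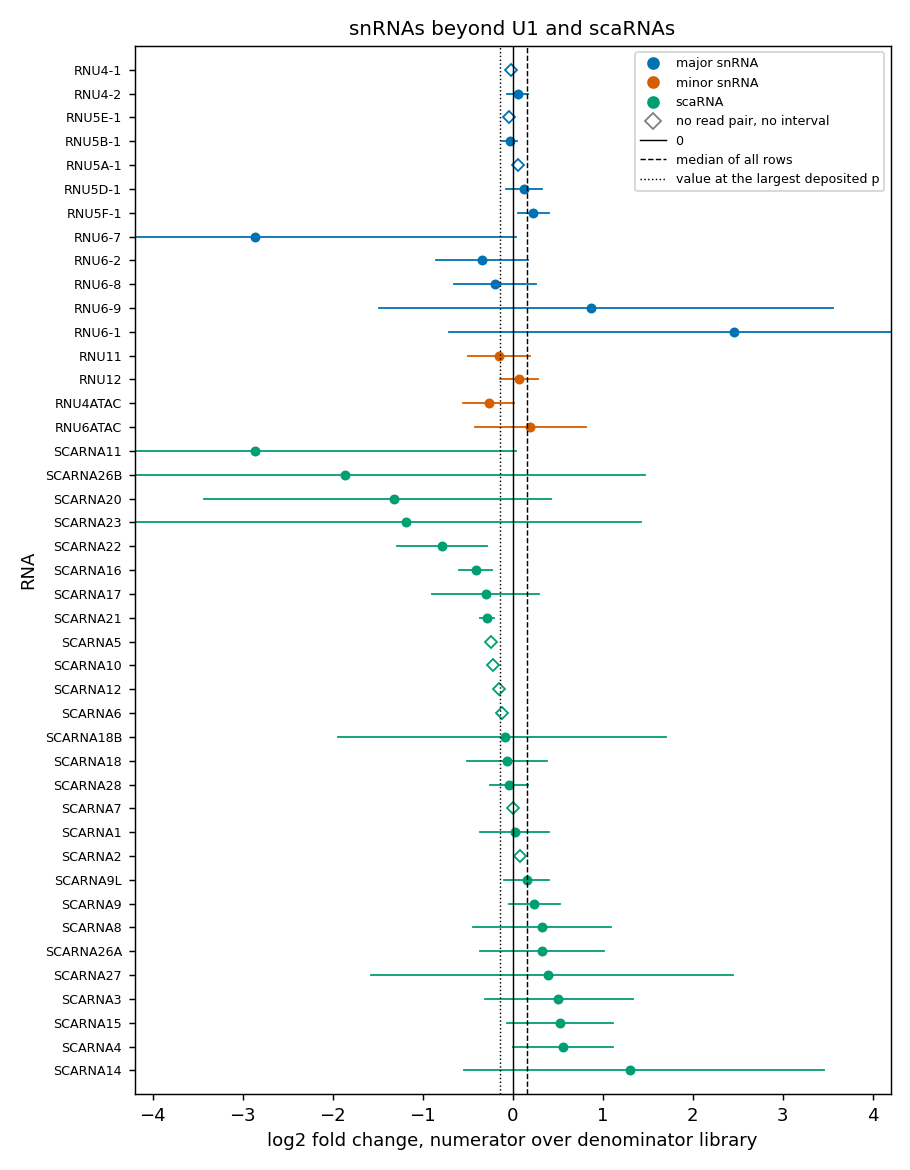
Log2 fold change of each of the 43 RNAs, numerator over denominator library, coloured by group. Bars are 95% counting intervals, which run off the axis for 5 RNAs with pairs of 8 reads or fewer in each library, and open diamonds are the 9 RNAs with no read pair. The intervals of RNU5F-1 and SCARNA4 lie above 0 and those of SCARNA16, SCARNA21 and SCARNA22 below it.

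Of the 43, 7 were at least 2-fold apart, 2 higher (RNU6-1 and SCARNA14) and 5 lower (RNU6-7, SCARNA11, SCARNA20, SCARNA23 and SCARNA26B). Over all rows, 22.7% were at least 2-fold apart, 16.3% higher and 6.35% lower. All 7 have smallest pairs with a larger number of 11 reads or fewer, and each interval of these pairs includes 1. For RNU6-7 and SCARNA11, whose intervals end at 1.02, more reads than the smallest pair could change this. With a larger number under 10, 6 of 9 members were 2-fold apart, beside 39.2% of such rows in the whole table, and with 10 to 49 it was 1 of 5, beside 29.5%. With 50 or more it was 0 of 20, beside 8.44%, and with no pair 0 of 9, beside 22% (together 0 of 29, beside 8.81%). The authors' deposited table gives q under 0.05 for 3 members, against 0.839% of all rows, and an unadjusted p under 0.05 for 7, against 3.8% of all rows. Of the 274 snoRNAs, 8 have such a q and 45 such a p there, so that the share with a low p is about the same as among the 43.

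**Figure D2:**
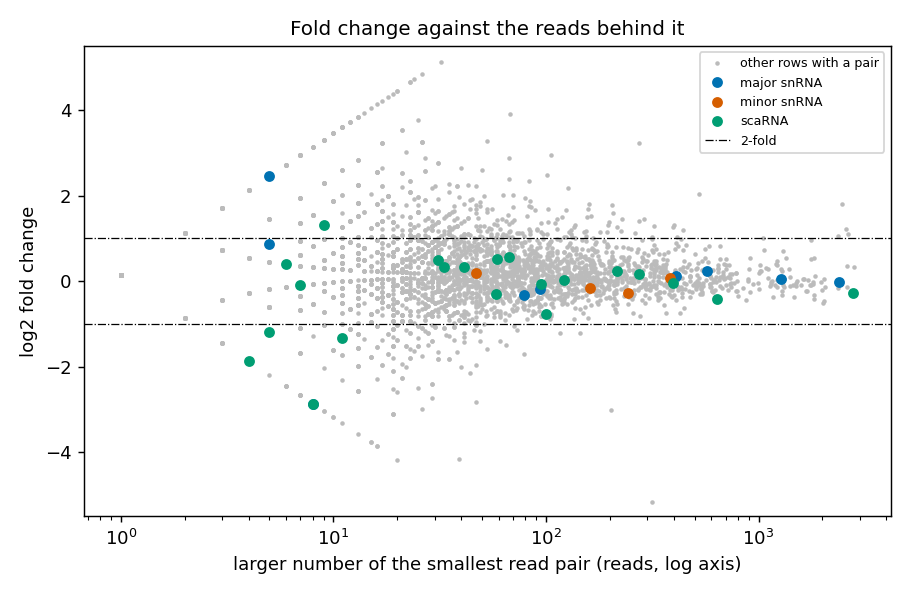
Log2 fold change against the larger number of the smallest read pair (log axis) for rows with a pair, with the snRNAs and scaRNAs in colour; dash-dotted lines mark 2-fold. Members beyond the lines sit at 11 reads or fewer, where RNU6-7 and SCARNA11 share 1 point, and those with 50 or more reads lie between the lines.

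Among the major snRNAs the median log2 fold change was 0.02 over 12 genes, 6 above and 6 below 0. U4 and U5 together, 7 genes, spanned only 0.972-fold to 1.17-fold, with a median of 0.06. All 7 lay above the value at which the deposited p-values are largest, and 6 of the 7 lay below the median of all rows. U6 spread far more, from 0.137-fold to 5.49-fold over 5 genes.

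U4 keeps U6 inactive until the spliceosome is activated. RNU4-1 stood at 0.991-fold, with no read pair, and has p = 1.23e-05 and q = 0.0051 in the authors' deposited table. RNU4-2 stood at 1.04-fold (0.960 to 1.13), from at least 1205 reads in the numerator and 1273 in the denominator library, the order kept below. Its p in the authors' deposited table is 0.0803. The U4 genes are 97.2% identical, so reads may be split between them, and their fold changes differ by 1.05 times. RNU4-1 thus lies below 1 and yet above the value at which the deposited p-values are largest.

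U5 binds both exons while they are joined and serves both spliceosomes. The 5 listed U5 genes, RNU5A-1 and RNU5B-1 on chromosome 15 and the others on chromosome 1, are 78.8% to 94.0% identical to each other. RNU5A-1 stood at 1.04-fold with no read pair, and has p = 2.85e-05 and q = 0.00986 in the authors' deposited table. RNU5B-1, 94.0% identical to it, stood at 0.978-fold (0.922 to 1.04), from at least 2132 reads against 2395. RNU5E-1, which overlaps an exon of another non-coding gene on its strand, stood at 0.972-fold with no pair. The variants less like RNU5A-1 were RNU5D-1, 81.9% identical, at 1.09-fold (0.948 to 1.25, at least 407 against 410 reads), and RNU5F-1, 83.9% identical. RNU5F-1 was highest at 1.17-fold (1.04 to 1.32, at least 575 against 538 reads), the only U5 gene with a pair whose interval lay above 1. Its interval includes the median of all rows (1.12-fold).

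Set against RNU5B-1, the ratio of RNU5F-1 was 1.20 times higher (approximate 95% counting interval 1.05 to 1.37). These are the highest and the lowest U5 gene with a pair, so the interval, not adjusted for that choice, is a description. RNU5D-1 was 1.12 times RNU5B-1 (0.961 to 1.29) and RNU5F-1 1.08 times RNU5D-1 (0.899 to 1.29), with 1 inside both intervals. In the authors' deposited table the p-values are 0.00516 for RNU5D-1, 0.0139 for RNU5F-1 and 0.048 for RNU5E-1, and 0.159 for RNU5B-1. The 14 pairs whose ratios are given here and below were chosen after the values were seen.

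U6 is the catalytic snRNA. RNU6-1, RNU6-2 and RNU6-9 are 100% identical in GENCODE 29, as are RNU6-7 and RNU6-8, and 1 base separates the sets. RNU6-1 stood at 5.49-fold (0.615 to 259.8) from a pair of 5 against 1 (p = 0.252 in the authors' deposited table), and RNU6-2 at 0.793-fold (0.554 to 1.13) from 57 against 79. RNU6-9 stood at 1.83-fold (0.356 to 11.8) from 5 against 3. Identical transcripts thus differ by 6.93 times in fold change, with intervals that overlap. RNU6-7 stood at 0.137-fold (0.0031 to 1.02) from 1 against 8 (p = 0.178 in the authors' deposited table), and its identical copy RNU6-8 at 0.876-fold (0.638 to 1.20) from 75 against 94. No source used here states whether the 1 in the pairs of RNU6-1 and RNU6-7 may stand for 0 reads, or how reads from identical copies were assigned. The U6 copies with 50 or more reads, RNU6-2 and RNU6-8, both lay below 1 with 1 inside their intervals.

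The minor spliceosome had no member at 2-fold, and no interval of a smallest pair excluded 1. For RNU4ATAC, whose interval ends at 1.01, more reads than the smallest pair could change this. Its median log2 fold change was -0.04 over 4 genes, 2 above and 2 below 0, or -0.20 relative to the median of all rows. RNU11, which reads the 5′ splice site of minor introns, stood at 0.901-fold (0.710 to 1.14), from at least 132 reads against 161. RNU12, which pairs with their branch site, stood at 1.05-fold (0.907 to 1.21), from 366 against 383. Both overlap an exon of another gene on their strand. U11 and U12 act as 1 joint particle, and the ratio of RNU12 over that of RNU11 was 1.17 (0.889 to 1.53).

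RNU4ATAC, the partner and chaperone of U6atac, was the lowest at 0.831-fold (0.682 to 1.01), from at least 183 reads against 242. RNU6ATAC, the counterpart of U6, stood highest at 1.15-fold (0.746 to 1.77), from 47 against 45. The interval of RNU4ATAC lay below the median of all rows, while it included 1. RNU6ATAC over RNU4ATAC gave 1.38 (0.879 to 2.17), and RNU12 over RNU4ATAC 1.26 (0.995 to 1.61), with 1 inside both intervals. RNU4ATAC shares 55.3% of aligned bases with RNU4-2, its counterpart in the major spliceosome, and RNU4-2 was 1.25 times higher in ratio (1.02 to 1.54). In the authors' deposited table the 4 genes have p-values of 0.157 (RNU12), 0.535 (RNU6ATAC), 0.615 (RNU4ATAC) and 0.933 (RNU11).

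Medians of the major and the minor snRNAs, 0.02 and -0.04 on the log2 scale, thus lay closer together than the width of the counting interval of any of these genes with a pair. Without the U6 genes the major median was 0.06, and with 50 or more reads or no pair it was -0.01 over 9 genes and the minor one -0.15 over 3.

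The 27 scaRNAs had a median log2 fold change of -0.06, 15 below and 12 above 0, beside 39.1% of all rows below 0. Of the 27, 1 was 2-fold or more higher and 4 were 2-fold or more lower, beside 16.3% and 6.35% of all rows. The scaRNAs beyond 2-fold all have smallest pairs with a larger number of 11 reads or fewer, and the intervals of these pairs include 1. All 21 scaRNAs that matched GENCODE 29 lie inside another gene on the same strand, 18 of them inside a protein-coding gene. Reads of unspliced host RNA may therefore be part of their values, and this was not tested. SCARNA2 of the C and D box class, SCARNA5 of the mixed class and 4 of the H and ACA box class are shown as the scaRNAs on which the results below turn. Of SCARNA2 (chromosome 1) bases 121 to 420 are printed, and capitals mark CTGA, the letters of a D box. In SCARNA5 (chromosome 2) they mark a run complementary to U4 followed by CTGA. In SCARNA4 (chromosome 1), SCARNA16 and SCARNA21 (chromosome 17) and SCARNA22 (chromosome 4) they mark the last ACA before the 3′ end. For SCARNA22 that ACA is the very end. An unmarked ACA directly before it lies as far from the end as the marked ones of the others, so the capitals may not mark its box.
SCARNA2: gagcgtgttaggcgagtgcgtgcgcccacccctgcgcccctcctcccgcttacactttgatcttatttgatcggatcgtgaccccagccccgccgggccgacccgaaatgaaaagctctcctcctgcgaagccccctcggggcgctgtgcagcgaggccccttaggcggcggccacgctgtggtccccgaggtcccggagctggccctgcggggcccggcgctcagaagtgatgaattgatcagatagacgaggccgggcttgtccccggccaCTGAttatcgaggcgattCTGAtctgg
SCARNA5: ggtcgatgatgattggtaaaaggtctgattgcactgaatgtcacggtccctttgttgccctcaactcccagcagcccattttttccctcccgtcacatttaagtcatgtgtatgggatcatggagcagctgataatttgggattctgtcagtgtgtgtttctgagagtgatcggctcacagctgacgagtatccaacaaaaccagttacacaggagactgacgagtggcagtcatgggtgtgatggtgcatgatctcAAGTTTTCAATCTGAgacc
SCARNA4: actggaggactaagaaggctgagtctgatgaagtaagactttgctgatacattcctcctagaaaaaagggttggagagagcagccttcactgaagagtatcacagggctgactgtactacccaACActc
SCARNA16: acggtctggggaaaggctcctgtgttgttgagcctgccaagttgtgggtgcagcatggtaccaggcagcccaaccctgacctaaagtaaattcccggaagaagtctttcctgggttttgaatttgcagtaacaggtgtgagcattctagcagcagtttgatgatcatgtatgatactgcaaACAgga
SCARNA21: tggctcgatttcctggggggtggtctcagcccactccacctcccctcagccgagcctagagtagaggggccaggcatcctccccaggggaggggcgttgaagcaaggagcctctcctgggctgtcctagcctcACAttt
SCARNA22: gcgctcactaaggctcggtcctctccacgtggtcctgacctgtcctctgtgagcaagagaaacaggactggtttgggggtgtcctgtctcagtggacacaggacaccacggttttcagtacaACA
An ACA within 5 bases of the 3′ end was found in 15 of the 21 scaRNAs and in 38% of 951 other snoRNA transcripts of GENCODE 29. The 951 were not split by box class, so the shares may differ because the classes do.

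The run of SCARNA5 spans its bases 258 to 268 and is complementary to U4 over 11 bases from position 61, so that the fifth base before the box, the one whose partner is methylated by such guides, faces position 65 of U4. Among 189 combinations of 21 scaRNAs and 9 snRNAs (U1 and U2 included), it was the longest perfect run that ends at CTGA. Of the 21, 13 are in the H and ACA box class, whose guides have no D box, so a CTGA in them marks no guide site. The next longest run had 8 bases, SCARNA8 with U5, but SCARNA8 is in that class and is taken below as a guide of U2. The longest runs of SCARNA2 (5 bases), SCARNA10 (5) and SCARNA17 (6) were with snRNAs other than the targets named below. SCARNA7 with its named target U1 had 5 bases. The search took only perfect runs, without G-U pairs or mismatches, directly before an exact CTGA. It therefore cannot decide whether these other guides have the named targets. A run is a description of the letters and does not show a modification.

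Guides with C and D boxes stayed near 0 on the log2 scale. Their median was 0.04 over 6, with 4 above and 2 below 0. SCARNA2, which guides methylation of U2, stood at 1.06-fold with no read pair, and overlaps an exon of another non-coding gene on its strand. It has the lowest p of all members in the authors' deposited table, 5.95e-07 (q = 0.000308). SCARNA7, a guide for U1, had a log2 fold change of 0.0042 and no pair (p = 0.0274 in the authors' deposited table). SCARNA9, another U2 guide, stood at 1.18-fold (0.970 to 1.44, at least 217 against 202 reads). Its relative SCARNA9L stood at 1.11-fold (0.939 to 1.32, at least 273 against 269), and the ratio between them was 1.06 (0.820 to 1.37). SCARNA28, placed in this class by the list used here, stood at 0.973-fold (0.840 to 1.13). SCARNA17, a guide for U4, stood at 0.814-fold (0.536 to 1.23) from a pair of 43 against 58, and overlaps an exon of another gene on its strand.

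The 4 guides with both kinds of box were all below 0, at a median of -0.18. SCARNA5 stood at 0.844-fold, SCARNA10, which guides both kinds of modification in U5, at 0.861-fold, SCARNA12 at 0.901-fold and SCARNA6 at 0.919-fold. None of the 4 has a read pair, so none has an interval. In the authors' deposited table SCARNA10 has p = 0.0525, SCARNA5 p = 0.0673, SCARNA12 p = 0.811 and SCARNA6 p = 0.869. Relative to -0.14, the value at the largest deposited p, 3 lay below and SCARNA6 above. SCARNA5 and SCARNA6 lie in the same gene, ATG16L1, and SCARNA10 and SCARNA12 overlap an exon of another gene on their strand, of PHB2 for SCARNA12.

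Of the 34 members with a pair, 5 had an interval that excluded 1; over all rows with a pair 29.1% did, 21.4% above and 7.72% below. Of the 13 guides with H and ACA boxes, all with a pair, 4 did, a share near that of all rows. SCARNA21, a guide for U12, stood at 0.821-fold (0.775 to 0.869), from at least 2081 reads against 2785. SCARNA16, a guide for U1, stood at 0.752-fold (0.664 to 0.851), from at least 436 against 637. SCARNA22, known as ACA11 and overexpressed in myeloma with a translocation at its host NSD2, stood at 0.582-fold (0.409 to 0.820), from at least 53 against 100. These 3 intervals lay below 1, below the median of all rows and below the value at the largest deposited p alike. In the authors' deposited table their p-values are 0.0615, 0.162 and 0.136, with q = 1, so that table does not call them.

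On the higher side, SCARNA4, a guide for U2, stood at 1.47-fold (1.01 to 2.17) from at least 67 against 50 reads, and its interval includes the median of all rows. SCARNA4 and SCARNA15 overlap an exon of another gene on their strand. SCARNA15 stood at 1.44-fold (0.961 to 2.17), SCARNA3 at 1.42-fold (0.806 to 2.53), SCARNA8 at 1.25-fold (0.736 to 2.13) and SCARNA1 at 1.02-fold (0.781 to 1.32). SCARNA14 stood at 2.47-fold (0.690 to 11) from at least 9 against 4 reads, with p = 0.358 in the authors' deposited table. Set against SCARNA16, the ratio of SCARNA4 was 1.96 times higher (1.33 to 2.88), and that of SCARNA15 was 2.47 times that of SCARNA22 (1.48 to 4.12). SCARNA9 was 1.44 times SCARNA21 (1.18 to 1.76) and SCARNA28 1.19 times SCARNA21 (1.02 to 1.38). SCARNA21 was 1.41 times SCARNA22 (1.01 to 1.98). Several of these pairs were picked from the high and the low end, and their intervals are not adjusted for that choice, so they are descriptions.

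The other members of this class, and the 4 scaRNAs placed in no box class, had small read pairs or stood near 1. SCARNA18, a guide for U1, stood at 0.960-fold (0.706 to 1.30), and SCARNA18B, 88.1% identical to it, at 0.941-fold (0.261 to 3.27), with a ratio between them of 1.02 (0.329 to 3.15). SCARNA11 stood at 0.137-fold (0.0031 to 1.02) from a smallest pair of 1 against 8 reads. SCARNA20 stood at 0.399-fold (0.0928 to 1.35) from a pair of 4 against 11, and SCARNA23 at 0.439-fold (0.0418 to 2.68) from 2 against 5. In the authors' deposited table p is 0.233 for SCARNA11, 0.249 for SCARNA20 and 0.389 for SCARNA23. SCARNA26A, SCARNA26B and SCARNA27 stood at 1.25-fold (0.780 to 2.01), 0.275-fold (0.0056 to 2.77) and 1.32-fold (0.335 to 5.46). Like SCARNA18B, they were placed in no box class by the list used here, although SCARNA18B has an ACA within 5 bases of its 3′ end. SCARNA26B, from a smallest pair of 1 against 4 reads, has p = 0.174 in the authors' deposited table. Whether the 1 in the pairs of SCARNA11 and SCARNA26B may stand for 0 reads is likewise not stated.

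Ordered by the snRNA they are known to guide, an assignment made from background knowledge after the values were seen, the 18 scaRNAs with such a target split as follows. All 7 guides of U2 (SCARNA1, SCARNA2, SCARNA4, SCARNA8, SCARNA9, SCARNA14 and SCARNA15) were above 0, with a median of 0.32, beside 60.9% of all rows above 0. Of the 11 guides of other snRNAs, 9 were below 0, with a median of -0.28, beside 39.1% of all rows below 0. The 9 scaRNAs given no target had a median of -0.09, with 6 below 0 and 3 above. Each of the 18 was given 1 target only, so any further target, or a target of the unassigned ones, is not counted. With 50 or more reads or no pair, 5 of 5 guides of U2 were above 0, with a median of 0.24, and 6 of 7 others below, with a median of -0.25. Of the 11 without that filter, those above 0 were SCARNA7 for U1 and SCARNA3 for U6. Relative to the median of all rows, 5 of the 7 and 1 of the 11 were above. Relative to the value at the largest deposited p, 7 of the 7 and 3 of the 11 were. Only SCARNA4 among the U2 guides, and SCARNA16 and SCARNA21 among the others, had an interval that excluded 1. No test of this split was run, since the grouping followed the values.

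**Figure D3:**
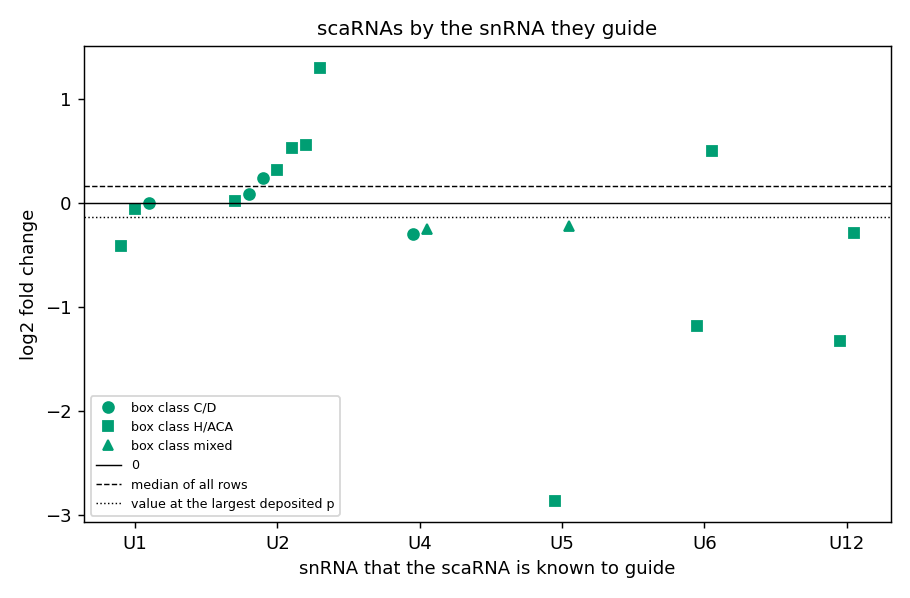
Log2 fold change of the 18 scaRNAs with an assigned target, by the snRNA they guide and by box class (symbols); lines mark 0, the median of all rows and the value at the largest deposited p. The 7 guides of U2 lie above 0, and 9 of the 11 others below.

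All 7 members with p under 0.05 in the authors' deposited table (RNU4-1, RNU5A-1, RNU5D-1, RNU5E-1, RNU5F-1, SCARNA2 and SCARNA7) lie above -0.14, and RNU4-1 and RNU5E-1 lie below 0. The other 20 of the 27 members above -0.14 do not have such a p, among them SCARNA4, which lies further above it than any of the 7. Taking -0.14 as no difference, 8 members had an interval above it and 3 below, 11 of 34 beside 33.6% of all rows with a pair (29.3% above and 4.38% below). Taking 0 gave 2 above and 3 below. Taking the median of all rows gave 0 above and 7 below, 7 of 34 beside 28.3% (14.3% above and 14% below).

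**Figure D4:**
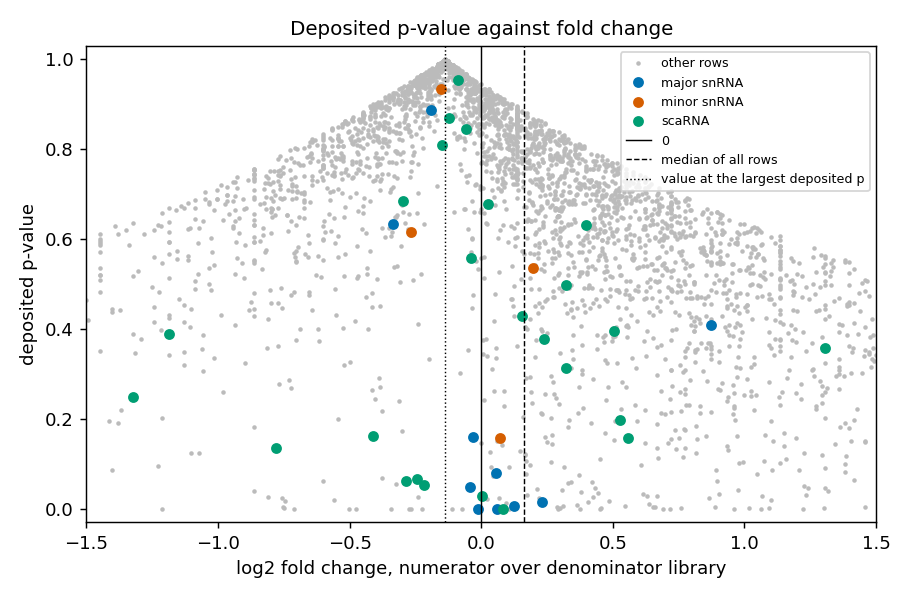
Deposited p-value against log2 fold change between -1.5 and 1.5, with the snRNAs and scaRNAs in colour over the other rows. The largest p-value lies at -0.14 and not at 0, and the 7 members with p under 0.05 lie between -0.04 and 0.23.

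Transcripts that hold scaRNAs, and other RNAs that mature in Cajal bodies, were compared where listed. Of 24 names of such host genes 3 were listed. SNHG20, whose exon overlaps SCARNA16, stood at 0.794-fold (0.662 to 0.951), from at least 211 reads against 292, beside 0.752-fold for SCARNA16. Their reads may be shared, which was not tested. A non-coding transcript of UCHL5, host of SCARNA18B, stood at 1.04-fold (0.624 to 1.72), and SNHG10, host of a scaRNA not analysed here, at 0.973-fold (0.695 to 1.36). Of 5 names of other Cajal body RNAs 3 were listed. TERC, the telomerase RNA, stood at 1.05-fold with no pair (p = 0.0241 in the authors' deposited table). SNORD3A, the U3 RNA of ribosome processing, stood at 1.37-fold with no pair, with p listed at 0 in the authors' deposited table, and SNORD13 at 1.02-fold (0.881 to 1.17, at least 381 against 412 reads).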

How the data were processed

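Per the labels' protocols, A375 total RNA went into mRNA-Seq kit libraries, 1 for 0 Gy and 1 for 8 Gy. The only build in the submitters' processing notes is mm10 (mouse), although the identifiers are human. Aligner, counting method, strand setting and test: not given in the sources used here. Per the file headers, each RNA has a log2 fold change with its p-value and q-value from the authors. The names of 2 further columns, with values per sample, match neither sample's labels, and these were not used, so total reads and levels per library are unknown here.

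Each log2 fold change deposited by the authors was taken relative to the most frequent one, 0.14 (66 rows), and expressed as the smallest whole-number pair (numbers up to 3000) with that ratio, within a relative tolerance of 1.5e-09. The search was tested on simulated pairs. Intervals are exact (Clopper-Pearson) 95% intervals on that pair, and cover counting error only, since PCR reads without molecular identifiers are not independent molecules. Ratios between members have approximate (normal, log odds ratio) 95% intervals on the same pairs. Sequences, positions and identity (global alignment) came from GENCODE 29. No human build is named for the table, so no coordinates are printed. Some sequences are not reported here.

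By rule, every member was named. The members and lists were chosen with earlier results of these data known. Tools were scipy 1.17.1, numpy 2.4.6, biopython 1.88 (alignment), pandas 2.3.3 and matplotlib 3.10.9 under Python 3.11.15.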

Additional observations from a re-analysis of the deposited data

How the results depend on the processing

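Of the 33 values recomputed under other settings, 28 moved by less than a limit and 5 moved more. The limit was 1.5 times for a count, and for a median the median half-width of the group's counting intervals. Many of the 28 could not have moved more. The other reference values, 0.16 and -0.14, shift a median by less than its limit (0.46 major, 0.31 minor, 0.60 scaRNAs). Taking 1 value per symbol, or for the minor snRNAs the 4 genes only, kept the same rows. Leaving out near-identical copies did so for the minor snRNAs and scaRNAs. The 7 members at least 2-fold apart became 1 with 10 or more reads in 1 library or no pair and 0 with 50 or more, by the construction of those filters, and 3 with a 4-fold threshold. Of the members, 3 pass a q of 0.05 in the authors' deposited table and 7 a p of 0.05. The 5 members whose interval excluded 1 became 11 with the value at the largest deposited p as no difference. With the median of all rows as no difference, 7 had an interval to 1 side of it, a different set that lost RNU5F-1 and SCARNA4. Both alternatives for this count were added after the data were seen. Medians changed sign within the tolerance: the major snRNAs ran from -0.14 to 0.16, the minor ones from -0.20 to 0.10 and the scaRNAs from -0.22 to 0.08 across the alternatives. No paired analysis was possible because each dose has a single library. On their smallest pairs, RNU6-1, RNU6-7, SCARNA11, SCARNA23 and SCARNA26B have the widest intervals of the members; more reads than the smallest pair would narrow them.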
